A study of Homo sapiens with 12 samples.

Results

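MORF4L1 and 7 genes whose products work with its protein were followed through 12 RNA sequencing libraries of 2 pancreatic carcinoma cell lines. The 8 members were MORF4L1, its paralogue MORF4L2, the NuA4 subunits MRGBP, KAT5, EP400, EPC1 and ING3, and MRFAP1. They were found by matching their symbols to the Ensembl identifiers of the count table. All 8 had a row among the 63677 of the table, and all 8 passed the filter on low counts that left 17862 genes. MORF4L1 was chosen by its lower level with RBM3 siRNA in both lines. Its response to the siRNA, and that of its pseudogene MORF4L1P1, is therefore described here, and no test of it is read as support.

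MIA PaCa-2 and PANC-1 are established lines from human pancreatic carcinomas. Each was given a negative control siRNA or a pair of siRNAs that target RBM3, whose product binds RNA and is induced by cold, at 25 nM. Cells were cultured for 72 h, transfected with lipofectamine over 4.5 h and harvested the next day. The 4 groups held 3 libraries each, named here by the replicate numbers of their labels, and the labels do not say that replicates were separate cultures, so any p-value measures the spread between these libraries, which may be technical. Each arm therefore rests on 1 line and 1 siRNA mixture. Keratins 8, 18 and 19 were present in both lines, while EPCAM and CDH1 were low in MIA PaCa-2.

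The MRG15 protein, which MORF4L1 encodes, has a chromodomain that binds methylated lysine 36 of histone H3, a mark of transcribed gene bodies. Through its MRG domain it joins several complexes, among them the NuA4 (TIP60) acetyltransferase and a SIN3 histone deacetylase complex, and it binds the DNA repair protein PALB2. NuA4 acetylates histones H4 and H2A, including its variant H2A.Z, with roles in transcription and in the repair of DNA breaks. KAT5 is its catalytic subunit, EP400 its large ATPase, EPC1 and ING3 belong to its catalytic module, and MRGBP tethers the MRG proteins. MRFAP1 is a small protein that binds MRG15 outside NuA4.

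Reads of MORF4L1 are hard to assign because MORF4L1P1 is a near copy of its coding sequence. In GENCODE 29, MORF4L1 (ENSG00000185787) lies at chr15:78810487-78898133 on the plus strand of GRCh38. MORF4L1P1 (ENSG00000218283) is annotated as a processed pseudogene at chr1:220253570-220254536, also on the plus strand. Of its 967 bases, 960 matched a MORF4L1 transcript without a gap, an identity of 99.3%, and all of them fell in the coding sequence. The 7 differences, with the MORF4L1 base first and positions counted from 1 at the 5′ end of the pseudogene, were C8G, A165G, C400T, G487T, T729C, T825C and C918T. Stretches of 75 bases, the read length, show what a single read could see. Over 194 such windows that lay inside a coding exon, 144 held 1 difference and 50 held none. Windows across an exon junction, which reads can also span, were left out. The longest run of the pseudogene identical to the MORF4L1 transcript was 241 bases. The first pair below, from exon 4, differs at base 10, counted from the 5′ end of the window (A10G, in capitals), and the second pair, which starts 10 bases further on, is identical, so that a read of it fits both genes.
MORF4L1, chr15:78886141-78886215: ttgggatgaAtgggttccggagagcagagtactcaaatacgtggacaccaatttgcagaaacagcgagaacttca
MORF4L1P1, chr1:220253725-220253799: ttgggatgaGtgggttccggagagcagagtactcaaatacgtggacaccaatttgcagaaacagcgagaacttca
MORF4L1, chr15:78886151-78886225: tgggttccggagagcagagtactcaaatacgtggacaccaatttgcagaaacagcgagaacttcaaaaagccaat
MORF4L1P1, chr1:220253735-220253809: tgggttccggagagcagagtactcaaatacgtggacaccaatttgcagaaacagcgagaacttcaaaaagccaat

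The sharing was uneven between the genes. Of the 7147 distinct 75-base words in the 23 annotated transcripts of MORF4L1, 460 (6.44%) also occurred in MORF4L1P1. The exons of all these transcripts cover 6584 bases, against 1880 bases for the transcript aligned above. The part of its reads that is shared may therefore be larger than 6.44%. Those 460 words made up 51.5% of the 893 words of the pseudogene. MORF4L2, the X-linked paralogue, was 78% identical to MORF4L1 over the aligned part and shared no word with it. Among the other members the sharing was with overlapping or duplicated genes. KAT5 shared 25.9% of its words with RNASEH2C, MRGBP shared 14% with OGFR-AS1, EPC1 shared 6.32% with any other gene and EP400 shared 5.31%, most of them with its copy EP400P1. MORF4L2 shared 3.27% with MORF4L2-AS1, and ING3 and MRFAP1 shared none. The setting used for strand and for reads that fit 2 places is not given in the sources used here. The counts of the genes that share words are therefore uncertain. The word shares do not measure by how much, because words were not weighted by the level of each transcript.

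The siRNA target was low in every siRNA library. RBM3 stood at 250, 276 and 206 CPM (read counts relative to the TMM-normalised library size) in MIA PaCa-2 control replicates 1, 2 and 4, against 44.4, 37.4 and 61.9 CPM in siRNA replicates 1, 2 and 5. In PANC-1 it stood at 567, 425 and 436 CPM in control replicates 1, 2 and 4 and at 96.4, 194 and 83 CPM in siRNA replicates 1, 2 and 3. This left 19.6% of the control mean in MIA PaCa-2 and left 26.2% of it in PANC-1, or 30.6% without siRNA replicate 3.

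Library depth was between 14217185 and 39652502 counts. PANC-1 siRNA replicate 3 stood apart, because it held transcripts of the other line. A set of 5 genes high in MIA PaCa-2 summed to 1240 CPM in it, to at most 4.02 CPM in the 5 other PANC-1 libraries and to between 2210 and 3530 CPM in the MIA PaCa-2 libraries. A set of 5 genes high in PANC-1 summed to 158 CPM in that library and to between 273 and 329 CPM in the other 5. The siRNA response in PANC-1 is therefore also given without it. That library stayed in the 1 model of all 4 groups, so its spread also entered the SE and edgeR tests of MIA PaCa-2. Without it, the number of members called in MIA PaCa-2 by edgeR was 0, as with it. PANC-1 control replicate 1 and siRNA replicate 2 shared high values of EPC1 and ING3, and removing both is given where it changes a value of a member by more than the replicate SD or its call. Summed acinar and islet markers reached at most 0.515 and 0.0929 CPM in any library. Fibroblast and leukocyte markers reached at most 1.38 and 2.62 CPM, both in PANC-1 controls, and endothelial markers 8.04 CPM in a MIA PaCa-2 control.

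MORF4L1 was lower in each siRNA library than in each control library of its line. In MIA PaCa-2 the control replicates 1, 2 and 4 held 242, 320 and 273 CPM, and the siRNA replicates 1, 2 and 5 held 151, 156 and 130 CPM. In PANC-1 the control replicates held 398, 433 and 456 CPM, and the siRNA replicates 1, 2 and 3 held 280, 297 and 225 CPM. The groups thus did not overlap in either line, and the range of the PANC-1 siRNA libraries overlapped that of the MIA PaCa-2 controls. In such bulk libraries, fewer cells with a transcript and less of it per cell cannot be told apart. The mean fell from 278 ± 39.2 to 146 ± 14.0 CPM (SD, n = 3) in MIA PaCa-2, to 52.4% of control. It fell from 429 ± 29.1 to 267 ± 37.9 CPM (SD, n = 3) in PANC-1, to 62.3% of control, or to 67.3% without siRNA replicate 3.

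As a log2 fold change, the MORF4L1 response was -0.93 (SE 0.16) in MIA PaCa-2 and -0.68 (SE 0.16) in PANC-1, or -0.59 (SE 0.16) in PANC-1 without siRNA replicate 3. The 2 responses differed by 0.25 (SE 0.22), with a 95% interval from -0.23 to 0.73. Without PANC-1 siRNA replicate 3 the difference was 0.34. These values chose the gene, so the counts that include it are given as a description and nothing is read from them. DESeq2 called 21 of 17862 genes in MIA PaCa-2, 0.118%, and MORF4L1 was the 1 member among them. All siRNA libraries lay below all controls in both lines for 29 genes, 0.162%, again with MORF4L1 as the 1 member.

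**Figure D1:**
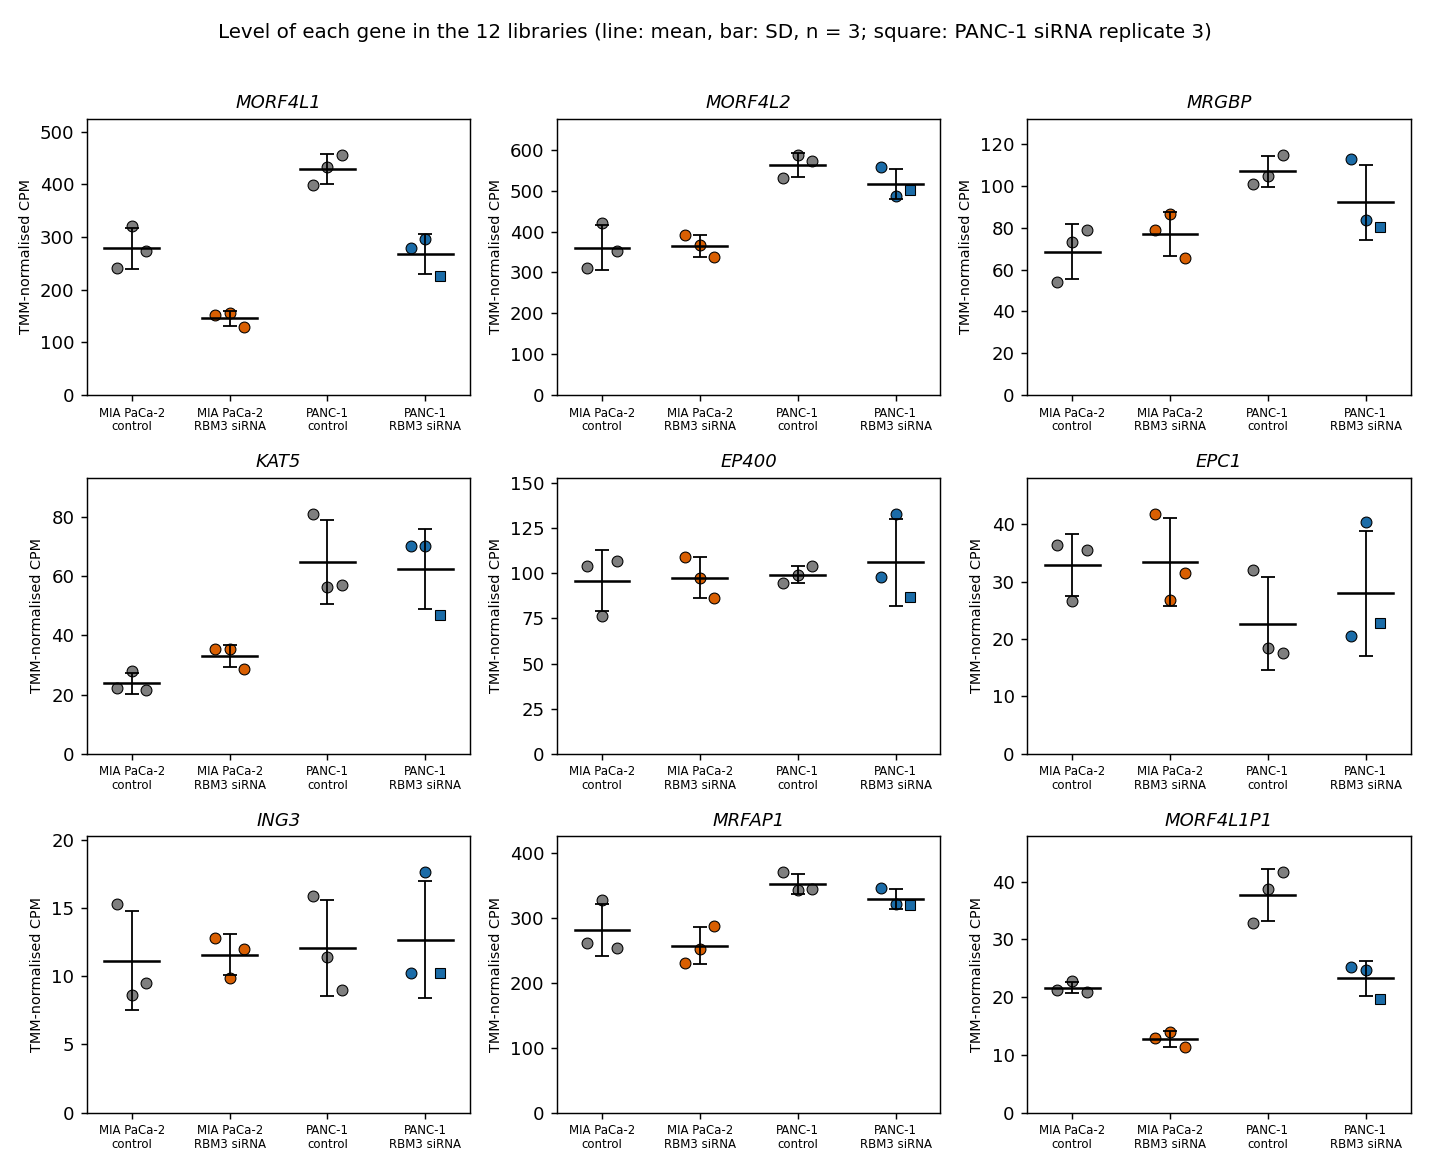
TMM-normalised CPM of the 8 members and of MORF4L1P1 (y axis, linear, from 0) in each library of the 4 groups (x axis); points are libraries, lines are means, bars are SD with n = 3, and the square is PANC-1 siRNA replicate 3. MORF4L1 and MORF4L1P1 separate siRNA from control libraries in both lines, and KAT5 does so upward in MIA PaCa-2.

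MORF4L1P1 followed its parent gene. It held 21.3, 22.8 and 20.9 CPM in the MIA PaCa-2 controls and 12.9, 14.0 and 11.3 CPM with the siRNA. In the PANC-1 controls it held 32.8, 38.7 and 41.6 CPM, and with the siRNA 25.3, 24.7 and 19.7 CPM. The pseudogene was thus below every control library in every siRNA library, at 58.8% of the control mean in MIA PaCa-2 and, for PANC-1, at 61.6% (66.2% without siRNA replicate 3). Its log2 fold changes were -0.76 (SE 0.18) and -0.70 (SE 0.18), or -0.61 in PANC-1 without siRNA replicate 3.

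MORF4L1P1 took a similar part of the counts of the pair. Its share of the MORF4L1 and MORF4L1P1 counts together was between 6.66% and 8.37% over the 12 libraries, with a median of 8.04%. The group means were 7.28% ± 0.722 in MIA PaCa-2 controls, 8.03% ± 0.183 with the siRNA, 8.06% ± 0.395 in PANC-1 controls and 8.01% ± 0.305 with the siRNA (SD, n = 3). Between the control groups of the 2 lines the exact two-sided permutation p was 0.2 (0.4 after adjustment over 2 ratios). The smallest that 3 against 3 allow is 0.1, so the tests of the ratios could not reach 0.05 and do not show that the lines are equal. Adding the pseudogene counts to MORF4L1 left its log2 fold changes at -0.92 and -0.68. Whether the pseudogene rows hold transcripts of the pseudogene or reads of MORF4L1 was not tested. Rows of the other copies were small. MORF4, a more distant copy with 96.3% identity, summed to 43 and 33 counts in the MIA PaCa-2 control and siRNA groups and to 78 and 57 in the PANC-1 groups. Those are few counts, but the gene passed the filter, and its values are given although they had been seen when it was picked. MORF4 was at 68.1% of the control CPM in MIA PaCa-2 and, for PANC-1, at 44.2% (46.3% without siRNA replicate 3), with log2 fold changes of -0.52 (SE 0.38) and -1.17 (SE 0.35) that edgeR did not call. Among controls, PANC-1 had more of it, by 1.14 (SE 0.36) on the log2 scale, with an edgeR adjusted p of 0.0183.

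MORF4L2 encodes MRGX, an MRG protein without the chromodomain that can take the place of MRG15 in NuA4. It held 310, 421 and 352 CPM in the MIA PaCa-2 controls and 391, 367 and 337 CPM with the siRNA. In PANC-1 it held 531, 588 and 572 CPM in controls and 557, 488 and 503 CPM with the siRNA. The groups overlapped in both lines. The log2 fold change for MIA PaCa-2 was 0.02 (SE 0.14), where the 95% interval covers folds from 0.816 to 1.25, and -0.13 (SE 0.14) in PANC-1, where it covers 0.740 to 1.13. Without siRNA replicate 3 the PANC-1 value was -0.13 (SE 0.15). The antisense gene MORF4L2-AS1, which shares sequence with it, was low, with group means between 0.417 and 1.56 CPM.

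Set against its paralogue in the same library, MORF4L1 had nearly the same ratio in the controls of both lines. There were 78.2, 75.9 and 77.5 MORF4L1 counts per 100 MORF4L2 counts in the MIA PaCa-2 controls, and 75.0, 73.6 and 79.7 in the PANC-1 controls. The difference of the log2 ratio, PANC-1 minus MIA PaCa-2, was -0.0216 in the controls (exact two-sided permutation p = 0.6, also after adjustment over 2 ratios). With RBM3 siRNA the ratio was 38.7, 42.6 and 38.6 in MIA PaCa-2 and 50.3, 60.8 and 44.6 in PANC-1. All siRNA libraries thus lay below all control libraries, and the lowest PANC-1 value came from siRNA replicate 3. The ratio needs no scaling between libraries, but its numerator is the value that chose MORF4L1.

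**Figure D2:**
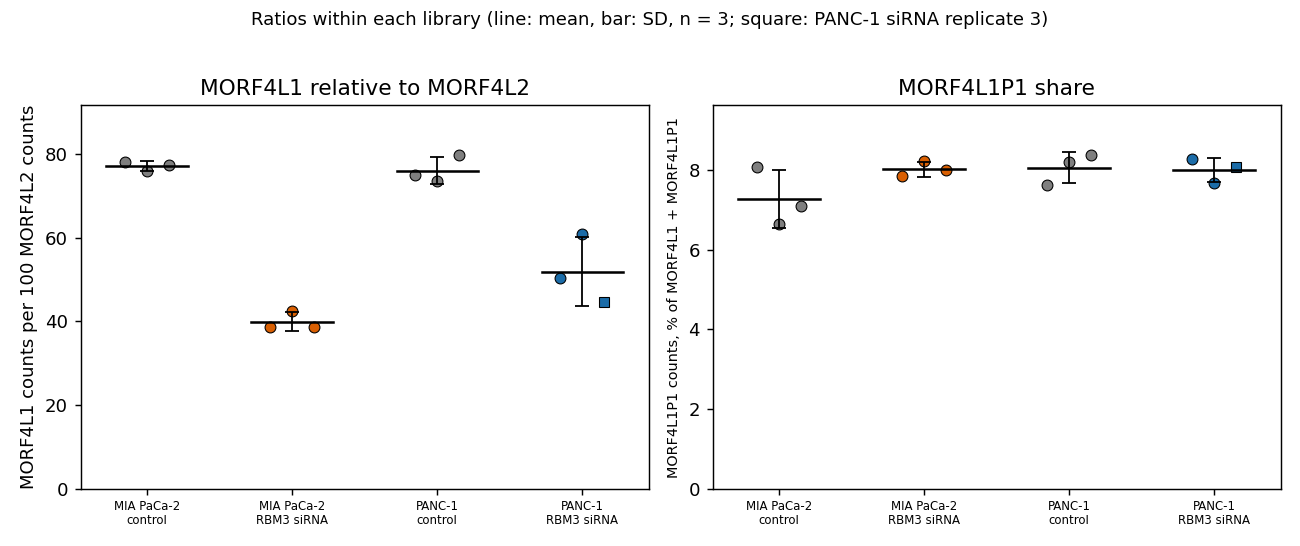
Left, MORF4L1 counts per 100 MORF4L2 counts; right, MORF4L1P1 counts as a percent of MORF4L1 plus MORF4L1P1 counts, each by library and group, with mean lines, SD bars (n = 3) and a square for PANC-1 siRNA replicate 3. The first ratio was 77.2 ± 1.16 and 76.1 ± 3.21 in the controls against 40.0 ± 2.29 and 51.9 ± 8.22 with the siRNA, while the second stayed between 6.66% and 8.37%.

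None of the 8 members passed the edgeR quasi-likelihood test in an siRNA comparison at an adjusted p of 0.05. In MIA PaCa-2 it called 2 of 17862 genes, 0.0112%. In PANC-1 it called none, 0%, and for the difference between the responses of the lines also none, 0%. At an unadjusted p under 0.05 it gave 525, 736 and 532 genes in these 3 comparisons, each fewer than the 893 expected by chance. Among them were 2 members in MIA PaCa-2 (MORF4L1 and KAT5), 1 in PANC-1 (MORF4L1) and 0 for the difference. DESeq2 called 21, 3 and 3 genes and limma-voom 1, 0 and 0. The only member among these calls was MORF4L1 with DESeq2 in MIA PaCa-2. The DESeq2 calls in PANC-1 and for the difference included GJB5, from the set of genes high in MIA PaCa-2 that siRNA replicate 3 held. DESeq2 counts without that library are not given, so these calls are not read as a response to the siRNA. MORF4L1 was chosen by its lower level with the siRNA, so its calls and lack of overlap here are a description. In MIA PaCa-2, libraries without overlap were lower with the siRNA for 3.63% of genes and higher for 4.41%, and 1 member fell under each, MORF4L1 and KAT5. In PANC-1 the same counts were 2.77% and 3.75% of genes, with 1 member (MORF4L1) and 0 members. Without PANC-1 siRNA replicate 3 they were 5.71% and 6.68%, with the same counts of members. The median log2 fold change of the members was 0.03 for MIA PaCa-2, beside 0 over all genes tested, and -0.08 for PANC-1, beside 0.03.

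KAT5, the acetyltransferase itself, was higher in all 3 MIA PaCa-2 siRNA libraries. It held 22.1, 27.9 and 21.6 CPM in the controls and 35.3, 35.3 and 28.8 CPM with the siRNA, 139% of the control mean. The log2 fold change was 0.48 (SE 0.21), with an unadjusted edgeR p of 0.0439 and an adjusted p of 1, so it was not called. In PANC-1 it held 81.1, 56.3 and 57.1 CPM in controls and 70.2, 70.3 and 46.9 CPM with the siRNA, which overlap. The log2 fold change there was -0.05 (SE 0.21), or 0.10 (SE 0.21) without siRNA replicate 3. The responses of the 2 lines differed by -0.53 (SE 0.30), with a 95% interval from -1.18 to 0.12. That difference includes siRNA replicate 3, and it was between -0.64 and -0.35 when 1 library at a time was removed. RNASEH2C, with which KAT5 shares sequence, was not analysed here.

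MRGBP, the subunit that holds MRG15 or MRGX in NuA4, overlapped between siRNA and control in both lines. It held 53.9, 73.3 and 78.9 CPM in the MIA PaCa-2 controls and 79.0, 86.5 and 65.5 CPM with the siRNA. In PANC-1 it held 101, 105 and 115 CPM in controls and 113, 83.7 and 80.2 CPM with the siRNA. Its log2 fold changes were 0.17 (SE 0.19) and -0.21 (SE 0.19), or -0.14 (SE 0.20) for PANC-1 without siRNA replicate 3.

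EP400, which exchanges H2A.Z into nucleosomes, was even across the groups. Its means were 95.8 ± 16.9 and 97.7 ± 11.5 CPM in MIA PaCa-2 and 99.0 ± 4.47 and 106 ± 24.1 CPM in PANC-1, control and siRNA (SD, n = 3). The highest of its 12 values, 133 CPM, was in PANC-1 siRNA replicate 2, and the other 11 lay between 76.3 and 109 CPM. Its log2 fold changes were 0.03 (SE 0.19) and 0.10 (SE 0.19). The PANC-1 value was 0.21 (SE 0.21) without siRNA replicate 3, -0.11 (SE 0.19) without siRNA replicate 2 and -0.13 (SE 0.20) without siRNA replicate 2 and control replicate 1.

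EPC1 and ING3, the scaffold and the histone-reading subunit of the catalytic module, were the members with the widest spread. EPC1 held 32.1, 18.4 and 17.6 CPM in PANC-1 control replicates 1, 2 and 4 and 20.6, 40.5 and 22.8 CPM in siRNA replicates 1, 2 and 3. ING3 held 15.9, 11.4 and 8.97 CPM in the same controls and 10.2, 17.6 and 10.2 CPM with the siRNA. For both genes PANC-1 control replicate 1 and siRNA replicate 2 were the highest of their groups. In MIA PaCa-2 EPC1 held 36.4, 26.7 and 35.6 CPM in controls and 41.9, 26.8 and 31.6 CPM with the siRNA, and ING3 held 15.3, 8.63 and 9.46 CPM and then 12.8, 9.89 and 12 CPM. The groups overlapped for both genes in both lines. The log2 fold changes of EPC1 were 0.02 (SE 0.31) in MIA PaCa-2 and 0.30 (SE 0.31) in PANC-1, and those of ING3 were 0.05 (SE 0.31) and 0.07 (SE 0.31). Single libraries moved them. For PANC-1, EPC1 was at 0.63 without control replicate 1, at -0.08 when siRNA replicate 2 was removed and at 0.42 when siRNA replicate 3 was. ING3 was at 0.32, -0.26 and 0.19 with the same removals. For MIA PaCa-2, removing 1 library gave between -0.19 and 0.16 for EPC1 and between -0.12 and 0.37 for ING3. For ING3 in MIA PaCa-2 the 95% interval covers folds from 0.647 to 1.66, so a fall to 52.4%, as for MORF4L1, lay outside it.

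MRFAP1 competes with other partners for the MRG domain. It held 262, 327 and 254 CPM in the MIA PaCa-2 controls and 231, 252 and 288 CPM with the siRNA. In PANC-1 it held 370, 343 and 344 CPM and then 346, 321 and 320 CPM, where siRNA replicates 2 and 3 lay below all controls and replicate 1 did not. Its log2 fold changes were -0.13 (SE 0.14) and -0.10 (SE 0.14), or -0.10 (SE 0.15) for PANC-1 without siRNA replicate 3. The groups overlapped in both lines.

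**Figure D3:**
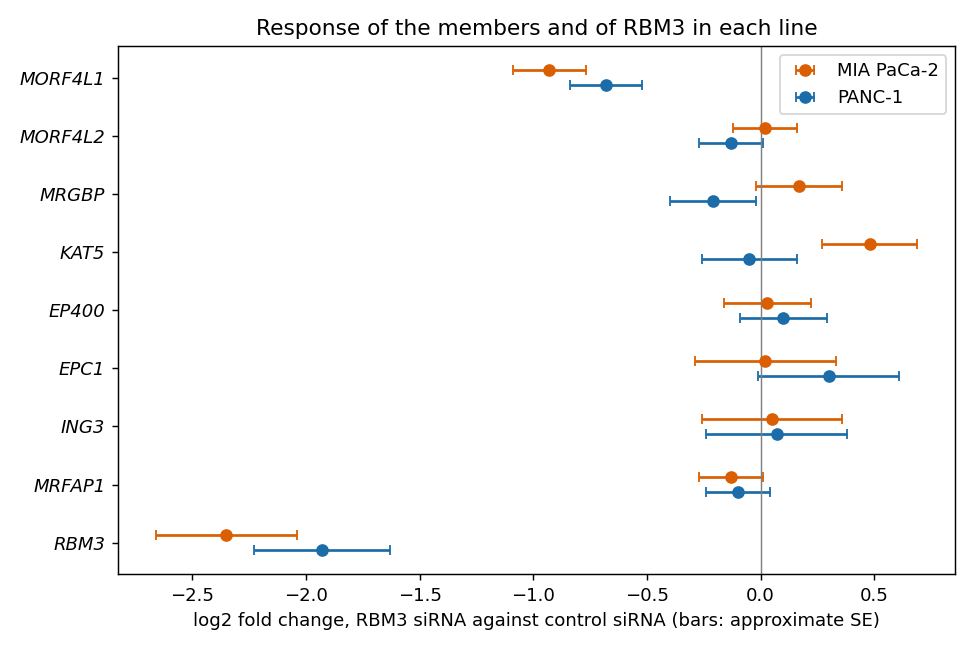
Log2 fold change of RBM3 siRNA against control siRNA (x axis) for the 8 members and RBM3 (y axis) in MIA PaCa-2 and PANC-1, from the edgeR model; bars are approximate SE. MORF4L1 lies at -0.93 and -0.68, the other 7 members between -0.21 and 0.48, and RBM3 at -2.35 and -1.93.

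The rest of NuA4 gave no call in either siRNA comparison. All 12 other subunits listed were tested, with a median log2 fold change of 0.02 in MIA PaCa-2 (7 of 12 positive) and 0.07 in PANC-1 (9 of 12 positive, or 6 of 12 with a median of 0 without siRNA replicate 3). In MIA PaCa-2 the 3 with the smallest p were DMAP1 at 0.40 (SE 0.22), the acetyl-lysine reader YEATS4 at 0.24 (SE 0.21) and MBTD1 at -0.15 (SE 0.24). In PANC-1 they were the large scaffold TRRAP at 0.26 (SE 0.19), MBTD1 at 0.22 (SE 0.24) and ACTB at -0.17 (SE 0.22). Each of these 6 differences was within 2 SE of 0. Without siRNA replicate 3 the PANC-1 values were 0.20 (SE 0.22) for TRRAP, 0.04 (SE 0.26) for MBTD1 and -0.29 (SE 0.23) for ACTB.

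Among 18 other partners of MRG15, such as SIN3 complex subunits and repair proteins, there was also no call, and the medians were 0.03 and 0.04, the latter -0.01 without siRNA replicate 3. MRFAP1L1, a relative of MRFAP1, had the smallest p in MIA PaCa-2. There its mean was at 73.0% of control, lower in all 3 siRNA libraries, with a log2 fold change of -0.45 (SE 0.22) and an edgeR adjusted p of 1. Of the 18 partners it was the 1 that was lower without overlap in MIA PaCa-2, beside 3.63% of all genes tested. In PANC-1 MRFAP1L1 was at -0.34 (SE 0.22), or -0.17 (SE 0.22) without siRNA replicate 3. The histone chaperone RBBP4 was at 0.16 (SE 0.13) and the repair protein BRCA2 at -0.45 (SE 0.41) in MIA PaCa-2. In PANC-1 the demethylase KDM5A was at 0.49 (SE 0.26) and the chaperone RBBP7 at 0.33 (SE 0.19). Without siRNA replicate 3 they were at 0.10 (SE 0.23) and 0.03 (SE 0.14). Among controls, both genes were higher in MIA PaCa-2 than in PANC-1. Whether carry-over from the other line shaped these or other PANC-1 values was not tested. None of 9 other MYST acetyltransferase and MSL genes and none of 4 H3K36 methyltransferases was called in an siRNA comparison.

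MORF4L1 was chosen by its level with the siRNA and not by the comparison of the lines under control siRNA. The same control libraries entered that choice, and earlier results of these data were known when the members were picked. Of the 8 members, 4 were higher in PANC-1 in edgeR (KAT5, MORF4L1, MORF4L2 and MRGBP) and none was lower. This comparison called 26.0% of all tested genes as higher in PANC-1 and 24.8% as lower, so calls were common. The median log2 difference of the members was 0.48, beside 0 over all genes.

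KAT5 differed most among the members. It was 2.72-fold higher in PANC-1, with 23.8 ± 3.49 CPM in MIA PaCa-2 and 64.8 ± 14.1 CPM in PANC-1 (SD, n = 3), a log2 difference of 1.44 (SE 0.22) and an edgeR adjusted p of 0.000208. The lowest PANC-1 control, at 56.3 CPM, was above the highest MIA PaCa-2 control, at 27.9 CPM.

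The MRG pair and its NuA4 tether were each about equally higher in PANC-1. MORF4L1 was 1.54-fold higher, with a log2 difference of 0.62 (SE 0.16) and an edgeR adjusted p of 0.00555. MORF4L2 was 1.56-fold higher, with 361 ± 56.4 and 563 ± 29.4 CPM (SD, n = 3), a log2 difference of 0.64 (SE 0.14) and an edgeR adjusted p of 0.00268. MRGBP was 1.56-fold higher, with 68.7 ± 13.1 and 107 ± 6.94 CPM (SD, n = 3), a log2 difference of 0.64 (SE 0.19) and an edgeR adjusted p of 0.0136. For all 3 genes every PANC-1 control was above every MIA PaCa-2 control. MORF4L1P1 was also higher, by 0.80 (SE 0.18) on the log2 scale, with an edgeR adjusted p of 0.00286.

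The 4 remaining members were not called between the lines. MRFAP1 was at 281 ± 40.4 CPM in MIA PaCa-2 and 352 ± 15.5 CPM in PANC-1 (SD, n = 3), a log2 difference of 0.33 (SE 0.14), and edgeR gave it an adjusted p of 0.0721. DESeq2 called it with an adjusted p of 0.0291, and edgeR did so without MIA PaCa-2 control replicate 2, with an adjusted p of 0.0258. EPC1 was the 1 member with a lower mean in PANC-1, at -0.53 (SE 0.31), with 0.169 as its edgeR adjusted p. Without PANC-1 control replicate 1 it was at -0.86 (SE 0.32), with an edgeR adjusted p of 0.0492. EP400 differed by 0.05 (SE 0.19) and ING3 by 0.12 (SE 0.31), with edgeR adjusted p of 0.844 and 0.778. For EP400 the 95% interval covers folds from 0.780 to 1.37, and for ING3 from 0.675 to 1.74.

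**Figure D4:**
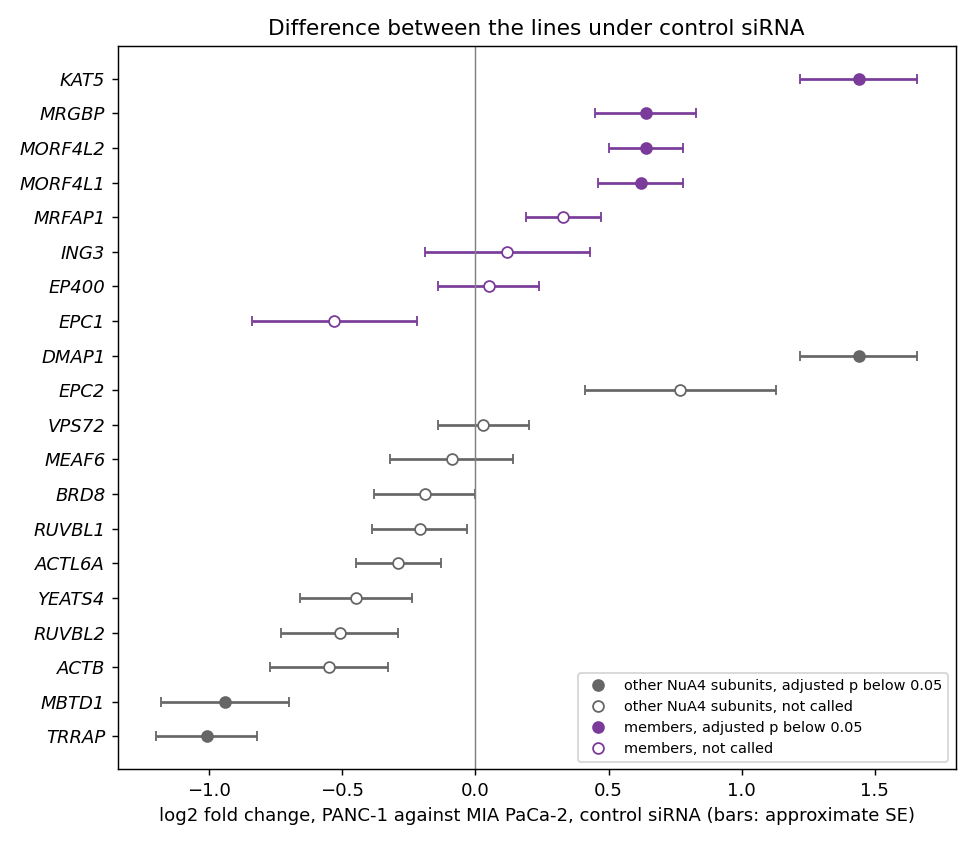
Log2 difference of the control groups, PANC-1 relative to MIA PaCa-2 (x axis) for the 8 members and 12 other NuA4 subunits (y axis), from the edgeR model; bars are approximate SE, and filled points have an adjusted p below 0.05. KAT5 and DMAP1 lie at 1.44, MORF4L1, MORF4L2 and MRGBP between 0.62 and 0.64, and TRRAP and MBTD1 at -1.01 and -0.94.

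Calls among the NuA4 subunits outside the members went in both directions between the lines, as did those over all genes. Of the 12, edgeR called 1 higher and 2 lower in PANC-1, with a median of -0.25. Over all tested genes it called 26.0% higher and 24.8% lower. DMAP1, named for its binding to a DNA methyltransferase, was higher by 1.44 (SE 0.22) on the log2 scale (edgeR adjusted p = 0.000244). TRRAP was at -1.01 (SE 0.19) and MBTD1, a reader of methylated histone H4, at -0.94 (SE 0.24), where the edgeR adjusted p was 0.000892 and 0.00604. Among the 18 other MRG15 partners, 3 were called higher and 3 lower, beside the same shares of all genes, with a median of -0.09. The 3 with the largest differences were the lower ones. KDM5A was at -1.75 (SE 0.27), RBBP7 at -1.18 (SE 0.19) and GATAD1 at -1.01 (SE 0.24), with edgeR adjusted p of 0.00025, 0.000381 and 0.00384.

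Other MYST acetyltransferases and H3K36 methyltransferases were compared between the lines as well. Of 9 other MYST acetyltransferase and MSL genes, 2 were called, both lower in PANC-1, the paralogues KAT6A at -1.70 (SE 0.28) and KAT6B at -1.39 (SE 0.26), with edgeR adjusted p of 0.000394 and 0.000868. Of 4 methyltransferases of H3K36, the residue MRG15 reads, 2 were called, also lower. NSD3 was at -1.94 (SE 0.33) and NSD1 at -0.75 (SE 0.22), with edgeR adjusted p of 0.000475 and 0.0132. The 24.8% of all genes called as lower is the background for these counts too.

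Levels of different genes were compared per length, as CPM per kilobase of the exon union in GENCODE 29. In the MIA PaCa-2 controls MORF4L2 was highest, at 136 ± 21.3, followed by MRFAP1 at 106 ± 15.2, MORF4L1 at 42.3 ± 5.95 and MRGBP at 24.7 ± 4.71 (SD, n = 3). KAT5 followed at 6.39 ± 0.935, EP400 at 5.12 ± 0.904, EPC1 at 2.91 ± 0.478 and ING3 at 2.13 ± 0.693 (SD, n = 3). Neighbours overlapped between libraries for MORF4L2 and MRFAP1 and for EPC1 and ING3. In the PANC-1 controls the order was the same except that ING3, at 2.32 ± 0.679, and EPC1, at 2.01 ± 0.724, changed places, again with overlap (SD, n = 3). KAT5 thus stood below MRGBP per length in both lines. With RBM3 siRNA in MIA PaCa-2, MORF4L1 at 22.2 ± 2.12 came after MRGBP at 27.7 ± 3.82, with overlapping libraries (SD, n = 3). The order depends on the length used, most of all for EPC1 and MORF4L1. Per kilobase of the longest coding transcript, EPC1 stood at 11.3 ± 1.85 in MIA PaCa-2 controls, above KAT5 at 10.4 ± 1.52, with overlap, and above EP400 at 7.46 ± 1.32 (SD, n = 3). On the same scale MORF4L1 stood at 182 ± 12.4 in PANC-1 controls, next to MRFAP1 at 172 ± 7.54 with overlap (SD, n = 3).

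Over the 12 libraries, after the mean of each line was subtracted, the genes most like MORF4L1 in log2 CPM were HIF1AN (r = 0.952), PNMA2 (0.942), PRKAG2 (0.933), RBM3 (0.923) and RACGAP1 (0.920), among 9957 genes with a mean of 10 CPM or more, copies of MORF4L1 left out. The libraries of a group share their siRNA, so these values are a description. The ranking and the PANC-1 values below include siRNA replicate 3, which held MIA PaCa-2 transcripts, and are not given without it. HIF1AN, PNMA2, RBM3 and RACGAP1 had lower means in MIA PaCa-2 than in PANC-1 controls, as MORF4L1 did, and PRKAG2 had a higher one. Whether that library shaped the correlations was not tested. HIF1AN, an asparagine hydroxylase acting on HIF1A, was at -0.92 (SE 0.17) on the log2 scale in MIA PaCa-2 and -0.49 (SE 0.17) in PANC-1. RACGAP1, a GTPase activator needed for cytokinesis, was at -0.45 (SE 0.16) and -0.36 (SE 0.16). PRKAG2, a regulatory subunit of AMPK, was at -0.55 (SE 0.14) and -0.27 (SE 0.14), and PNMA2 at -0.33 (SE 0.14) and -0.15 (SE 0.14). MORF4L1P1, left out of that ranking as a copy, had a higher r of 0.979. The other members were less like it, with MRFAP1 at 0.473, MORF4L2 at 0.365, MRGBP at 0.182 and KAT5, EPC1, ING3 and EP400 between -0.284 and -0.065.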

How the data were processed

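RNA of 12 samples was sequenced. The authors deposited raw read counts per Ensembl gene in 1 table. STAR 2.5.2a, featureCounts, Subread and Picard made them on hg19/GRCh37, per the submitters' processing notes. The annotation release, strand setting and duplicate treatment were not given in the sources used here. The reference was GENCODE 29 on GRCh38, so positions and sequences are of GRCh38 and counts of GRCh37; pairs of sequences were aligned with Biopython 1.88.

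Counts were analysed with edgeR 4.0.16 in R 4.3.3 (TMM, filterByExpr with a minimum count of 10, 1 model of all 4 groups, 8 residual degrees of freedom, two-sided quasi-likelihood F-tests, Benjamini-Hochberg adjustment over 17862 genes, threshold 0.05). The SE is the absolute log2 fold change over the square root of F. Groups came from the labels. Alternatives were DESeq2 1.42.0, limma-voom (limma 3.58.1), other size factors and filters, each line alone, a replicate block, summed MORF4L1 and MORF4L1P1 counts and removal of libraries. Replicate pairs of a group had a chi-square per degree of freedom between 11.7 and 187, so none was a copy.

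The members and gene lists were chosen with earlier results of these data known. Named from the lists were the 3 smallest p-values in each siRNA comparison, the 3 largest called differences between the lines, 2 genes each of the MYST and H3K36 lists by their p between the lines, and the 5 genes most correlated with MORF4L1, its copies left out.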

Additional observations from a re-analysis of the deposited data

How the results depend on the processing

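The count of members called stayed at 0 for RBM3 siRNA in PANC-1 and for the difference of the responses in all alternatives run, and between 4 and 5 for the comparison of the lines. In MIA PaCa-2 it was 0 except with DESeq2, which called 1 member, MORF4L1, the gene chosen by this response. Leaving out each library in turn gave 0 members in the 3 siRNA comparisons and 4 to 5 between the lines. The MORF4L1 log2 fold change was between -1.01 and -0.83 for MIA PaCa-2 and between -0.78 and -0.59 in PANC-1 over these 12 removals. Over the 10 other alternatives it was between -0.94 and -0.83 for MIA PaCa-2 and between -0.81 and -0.55 in PANC-1. The value of -0.81 came without PANC-1 control replicate 1 and siRNA replicate 2, a choice made after seeing the data. The fifth member between the lines was MRFAP1 or EPC1. MRFAP1 was also called with median-of-ratios size factors, with library size alone and with a filter of 1 CPM in 6 libraries, with edgeR adjusted p of 0.0437, 0.0411 and 0.0447. EPC1 was called without that PANC-1 pair, with an edgeR adjusted p of 0.0111. Over all alternatives their adjusted p ranged from 0.0258 to 0.26 for MRFAP1 and from 0.0111 to 0.399 for EPC1, and that of MRGBP from 0.00315 to 0.0499. The cause was not tested.

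Same-numbered libraries of a line did not deviate together (correlation 0.01 and -0.05 for MIA PaCa-2, -0.40 and -0.33 for PANC-1). The labels do not say that equal numbers mark a shared culture or day, and so few libraries cannot settle it. With the replicate number as a block, 0 members were called in the siRNA comparisons and 4 between the lines. ING3 had the fewest counts of the members, between 732 and 1236 per group, and EPC1 and ING3 had the widest SE, 0.31.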
